A study of Sus scrofa with 10 samples.

Results

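AIF1, TYROBP, CD163 and CD86 are genes of macrophages and other myeloid cells, and their transcripts were examined in the ampullary-isthmic junction of the pig oviduct, the stretch where sperm and oocytes meet. They were taken as every array feature annotated to one of these 4 symbols, which gave 11 of 45220 features: 2 for AIF1, 2 for TYROBP, 4 for CD163 and 3 for CD86. RNA of whole junction tissue came from 10 cyclic Landrace x Large White sows, all weaned together, examined after natural ovulation and given no hormones, and each sow had 1 array. The 5 inseminated sows (AI943, AI993, AI837, AI1059 and AI792) had received fresh diluted boar semen during standing oestrus, and the 5 non-inseminated sows (AI788, AI1061, AI991, AI696 and AI992) had received none. A mock insemination is not described, so that semen and the act of insemination cannot be told apart, and the oviducts were not flushed before freezing. Ages were not given in the sources used here.

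Macrophages reside in the wall of the reproductive tract, where they take up debris and pathogens and present peptides to T cells on MHC class II molecules. AIF1 codes for IBA1, a calcium-binding, actin-bundling protein of macrophages. TYROBP codes for DAP12, an adaptor that passes signals from receptors such as TREM1 to the kinase SYK in myeloid cells and also in natural killer cells. CD163 is the scavenger receptor that clears haemoglobin bound to haptoglobin, and is carried by monocytes and macrophages. CD86 is a costimulatory ligand of CD28 and CTLA4 on T cells, found on macrophages, dendritic cells and B cells. In the Sscrofa11.1 annotation TYROBP lies on chromosome 6, CD163 on chromosome 5 and CD86 on chromosome 13, whereas AIF1 lies on chromosome 7, as do the class II genes SLA-DRA and SLA-DMA.

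Some usual markers of the labelled tissue had a high mean log2 intensity. The secretory glycoprotein OVGP1 read 15.9, the epithelial EPCAM 13.5 and the smooth muscle actin ACTA2 14.7. Other listed epithelium markers were lower, among them CDH1 at 9.06, MUC1 at 8.62, RSPH4A at 8.31 and PIGR at 7.79. One library stood apart from the rest. The array of non-inseminated sow AI1061 had a median correlation of 0.944 with the other arrays, against 0.971 to 0.980 for the others, and it held the highest value of 19.6% and the lowest value of 26.7% of all features. In AI1061 the mean of 11 measured oviduct epithelium markers of 14 listed was 11.1, against 11.7 to 12.2 in the other sows, and the mean of 6 stroma markers of 10 listed was 10.6, against 8.85 to 10.3. Results are therefore given with and without AI1061.

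AIF1 was read by 2 features, and both were highest in the inseminated sow AI792 and lowest in the non-inseminated sow AI991. Feature 25271 read 10.54, 10.39, 9.92, 10.39 and 11.10 in the inseminated sows AI943, AI993, AI837, AI1059 and AI792. In the non-inseminated sows AI788, AI1061, AI991, AI696 and AI992 it read 9.90, 10.87, 9.74, 9.89 and 10.06. After AI792 the highest sow was the non-inseminated AI1061, so that the groups overlapped. Feature 35863 read 9.52, 9.11, 8.77, 9.19 and 9.78 in the inseminated sows, named in the same order here and below. It read 8.57, 9.51, 8.56, 8.71 and 9.001 in the non-inseminated sows. Both features were above the median intensity of all values, 7.09, in 10 of 10 sows.

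TYROBP had the same pair of high sows. Feature 24188 read 8.50, 8.42, 8.27, 8.25 and 8.94 in the inseminated sows. It read 8.11, 8.97, 8.07, 8.04 and 7.98 in the non-inseminated sows. With AI1061 set aside, each inseminated sow was above each non-inseminated sow. Feature 2621 read 7.89, 7.90, 7.85, 7.75 and 8.38 in the inseminated sows. It read 7.47, 8.30, 7.58, 7.52 and 7.36 in the non-inseminated sows, where again AI1061 alone was above the lowest inseminated sow.

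CD163 was read by a bright and a dim pair of features. Feature 12936 read 8.77, 9.26, 8.89, 7.67 and 9.02 in the inseminated sows. It read 7.90, 10.04, 8.23, 8.41 and 7.78 in the non-inseminated sows. AI1061 was the highest of all, and the inseminated sow AI1059 the lowest. Feature 35337 read 8.92, 8.95, 9.16, 7.64 and 8.65 in the inseminated sows. It read 8.001, 9.60, 8.34, 8.18 and 7.41 in the non-inseminated sows. These were the features of widest spread among the 11: the range over sows, 2.37 and 2.19 on the log2 scale, exceeded that of 96.7% and 95.8% of all features. The dim features 20440 and 569 lay between 6.56 and 7.45 and between 6.58 and 7.35, above the median intensity of all values in 4 of 10 sows each.

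CD86 had the smallest range over sows of the 4 gene means, 0.39 on the log2 scale against 0.99 to 1.29. Its bright feature 33227 read 8.83, 9.25, 9.06, 9.18 and 9.15 in the inseminated sows. It read 8.96, 9.13, 8.85, 8.62 and 8.54 in the non-inseminated sows. The lowest sows, AI696 and AI992, were not inseminated, and the groups overlapped. The dim features 39554 and 30065 lay between 6.95 and 7.46 and between 6.56 and 7.27, and both were lowest in AI1061. The accession behind feature 33227 was not found in the RefSeq table, so its symbol rests on the platform annotation, whereas the other 10 features carry accessions listed there under the gene.

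**Figure D1:**
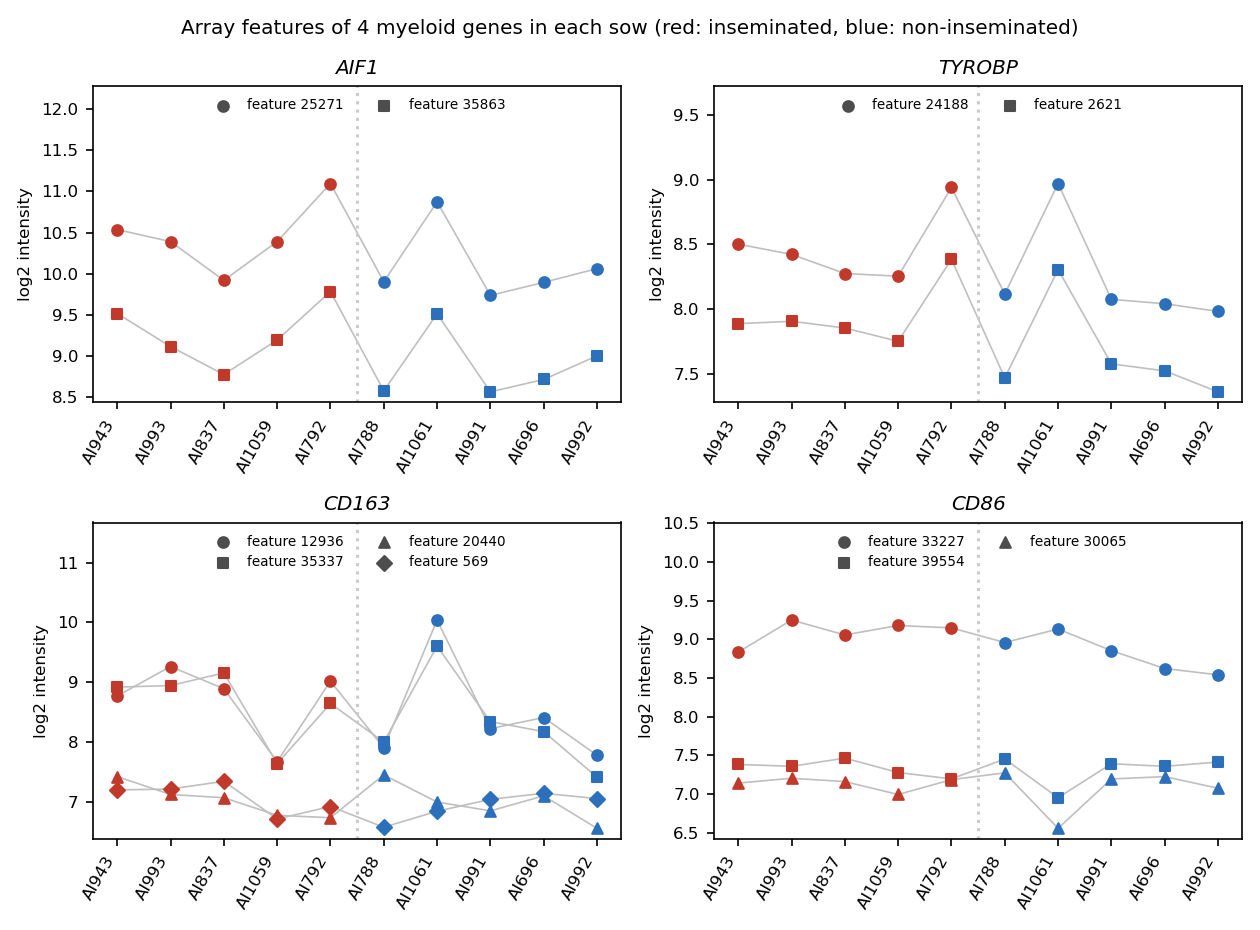
Log2 intensity (vertical axis) of each feature of AIF1, TYROBP, CD163 and CD86 in each of 10 sows (horizontal axis), inseminated sows in red and non-inseminated sows in blue, with a symbol for each feature. AIF1 and TYROBP peak in AI792 and AI1061, and the bright CD163 features peak in AI1061 at 10.04 and 9.60.

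The first question was whether the 4 genes differed after insemination. None passed the test, either per feature or per gene, as the mean of its features. AIF1 averaged 9.87 ± 0.40 with and 9.48 ± 0.42 without insemination (SD, n = 5 each), a difference of 0.39 on the log2 scale (standard error 0.23, 95% interval -0.13 to 0.90). TYROBP averaged 8.22 ± 0.26 and 7.94 ± 0.39 (SD, n = 5 each), a difference of 0.28 (standard error 0.19, 95% interval -0.15 to 0.70). CD163 averaged 7.87 ± 0.39 and 7.68 ± 0.43, a difference of 0.20 (standard error 0.24, 95% interval -0.32 to 0.72). CD86 averaged 7.86 ± 0.06 and 7.73 ± 0.13, a difference of 0.12 (standard error 0.09, 95% interval -0.07 to 0.31). The adjusted p from limma was 0.999 for each of the 4 genes, and the two-sided exact permutation p was 0.159 for AIF1, 0.238 for TYROBP, 0.476 for CD163 and 0.0952 for CD86. The intervals of the gene means leave room for a rise of AIF1 of up to 1.87-fold. For the mean of CD163 they leave room for a rise of up to 1.64-fold and for a fall to 0.80-fold. That mean includes the dim CD163 features, and the bright features alone leave more room. Their 95% intervals from limma ran from 0.62- to 2.28-fold for feature 12936 and from 0.71- to 2.31-fold for feature 35337. In bulk tissue fewer cells of a type and less RNA per cell cannot be told apart.

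Of the 11 features, 11 had the higher mean in inseminated sows, where 50.3% of all features did. By limma 0 of 11 passed at an adjusted p of 0.05, as did 0.0% of all 45220 features, and 0 of 11 had an unadjusted p under 0.05, against 3.37% of all features. In 0 of 11 was every inseminated sow above every non-inseminated sow, as was so for 0.462% of all features. Without AI1061 the unadjusted p was under 0.05 and the difference positive for 7 of 11 features, against 2.98% of all features, while the adjusted p from limma ran from 0.656 to 0.983. These 7 were both AIF1, both TYROBP and both bright CD163 features and the bright CD86 feature. By the exact permutation test without AI1061 p was 0.103 and 0.0952 for the bright CD163 features and from 0.0079 to 0.0397 for the other 5. The dim CD86 features then turned to the other sign, at -0.07 and -0.055 (limma adjusted p 0.889 and 0.918). The 11 features share sows, and features of the same gene can vary together, so that these counts do not rest on separate observations.

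TYROBP changed most plainly in order when AI1061 was set aside. Its difference was then 0.45 (standard error 0.13), with a two-sided exact permutation p of 0.0159 where 9 sows allow no p below 0.0079. The limma adjusted p over all genes was 0.559, and the 2 groups of sows did not overlap for either feature, as was the case with the same direction for 1.07% of all features. AIF1 differed by 0.57 without AI1061 (exact permutation p 0.0397, limma adjusted p 0.573). CD163 differed by 0.37 (exact permutation p 0.143) and CD86 by 0.08 (exact permutation p 0.198). Leaving out the other high sow, the inseminated AI792, gave 0.25 for AIF1 and 0.16 for TYROBP.

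**Figure D2:**
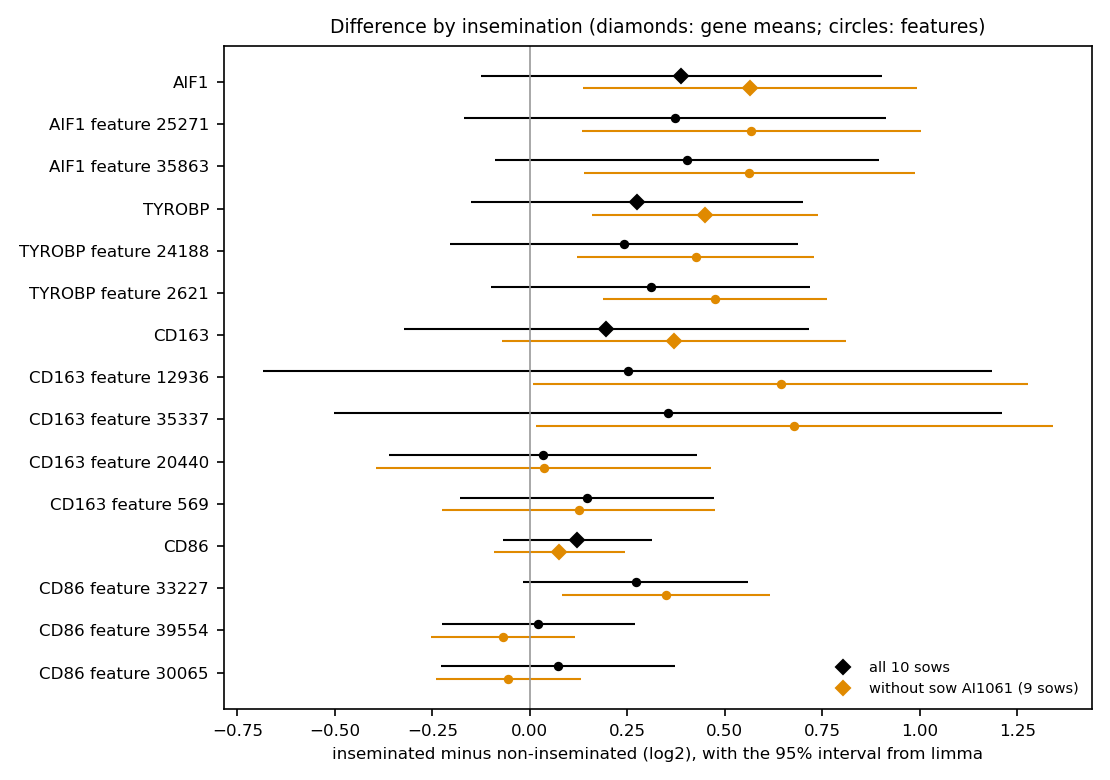
Difference between inseminated and non-inseminated sows on the log2 scale (horizontal axis) with its 95% interval from limma, for each gene (diamonds) and each feature (circles), over 10 sows in black and without AI1061 in orange. In black every interval includes 0, and in orange the intervals of AIF1, TYROBP, both bright CD163 features and CD86 feature 33227 lie above it.

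The next question was whether the 4 genes moved together from sow to sow. The features of AIF1 and of TYROBP each told the same story, and AIF1 and TYROBP followed each other. The AIF1 features correlated at r = 0.969, the TYROBP features at 0.975 and the bright CD163 features at 0.937 (permutation p adjusted over 11 same-gene pairs 0.00011, 0.00011 and 0.000257). The dim CD163 features did not pass against the bright ones or each other, with r from 0.020 to 0.377 (permutation adjusted p 0.45 to 0.956). Without AI1061 the dim feature 569 had r = 0.654 and 0.638 with the bright features (exact permutation p 0.0584 and 0.066, adjusted p 0.145 each). For CD86 the bright feature had r = -0.418 and -0.251 with the dim ones, neither past the test (permutation p 0.233 and 0.523), and the second was -0.038 without AI1061. The dim ones had r = 0.845 with AI1061 and 0.281 without it (permutation adjusted p 0.0614 and exact permutation adjusted p 0.591). Means of CD163 and CD86 therefore average features that were not shown to vary together, and both genes are also described by single features below.

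Over the 6 pairs of genes, AIF1 and TYROBP had r = 0.882 (permutation p 0.00079, adjusted p 0.00474) and Spearman's rho 0.782 (permutation p 0.0111, adjusted p 0.0624). This r stood at percentile 99.9 of the correlations of AIF1 with all other genes. As deviations from the group means r was 0.855 (exact permutation p within groups 0.0187, adjusted p 0.0665), and without AI1061 it was 0.864 (exact permutation p 0.0039, adjusted p 0.0234). Without AI1061 and AI792, the sows farthest from the median, it was 0.686 (exact permutation p 0.0679), so that the test rests on these sows. TYROBP and CD163 had r = 0.673 and rho = 0.733 (permutation p 0.0347 and 0.0208, adjusted p 0.104 and 0.0624), and without AI1061 r = 0.538. AIF1 and CD163 had r = 0.392 (adjusted p 0.522). CD86 gave r of -0.277 with AIF1, -0.192 with TYROBP and -0.084 with CD163, none past the test (permutation adjusted p 0.668 to 0.824). Without AI1061 these turned to 0.051, 0.419 and 0.533, and within groups r of CD86 with AIF1 was -0.725 (exact permutation p 0.0222, adjusted p 0.0665).

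By single features the picture of CD163 and CD86 was sharper. Among 44 pairs of features of different genes, 8 passed at an adjusted permutation p of 0.05 over the 44, 6 with positive and 2 with negative r. The 4 pairs of an AIF1 and a TYROBP feature were among the 6, with r from 0.813 to 0.925, and the others joined CD163 feature 12936 to TYROBP features 24188 (r = 0.80) and 2621 (r = 0.805). The 2 negative pairs joined the dim CD86 feature 39554 to TYROBP feature 24188 (r = -0.803) and to AIF1 feature 25271 (r = -0.763). The bright CD86 feature had positive r with both features of AIF1 and TYROBP, from 0.399 to 0.693, and none of these pairs passed (adjusted p 0.092 to 0.395). Without AI1061, or within groups, 0 of 44 pairs passed at an adjusted p of 0.05.

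**Figure D3:**
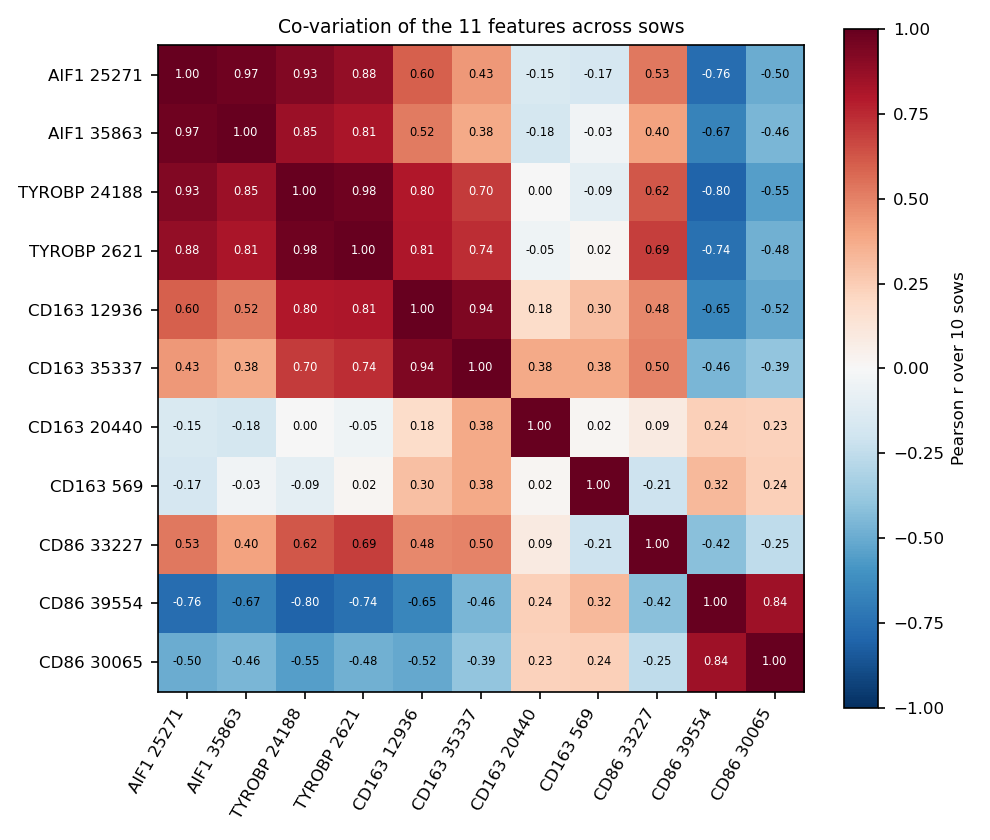
Pearson r over 10 sows between each pair of the 11 features, labelled by gene and feature number, from blue (-1) to red (1). The AIF1 features, the TYROBP features and CD163 feature 12936 form a red block, and the dim CD86 features 39554 and 30065 stand in blue against it.

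MHC class II molecules are made of an alpha and a beta chain and present peptides to helper T cells, and CD74, the invariant chain, guards their groove on the way to the endosome. Of 15 listed symbols 9 were measured. They were the peptide-presenting chains SLA-DRA, SLA-DRB1, SLA-DQA1 and SLA-DQB1, the other chains SLA-DMA, SLA-DMB, SLA-DOA and SLA-DOB, and CD74. Their mean read 9.04, 8.74, 8.71, 9.10 and 10.08 in the inseminated sows. It read 8.71, 9.34, 8.72, 8.49 and 8.17 in the non-inseminated sows. AI792 was highest and AI1061 second, as for AIF1, and AI992 was lowest, as for TYROBP. The difference by insemination was positive for 9 of 9 genes, against 46.8% of all genes. It had a median of 0.44 against -0.01 over all genes, and none of the 9 passed (limma adjusted p 0.999). Without AI792 it was positive for 8 of 9 with a median of 0.21, and without AI1061 for 9 of 9 with a median of 0.65.

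TYROBP followed the class II mean most closely of the 4, with r = 0.881 and rho = 0.867 (permutation p 0.00032 and 0.00203, adjusted over 40 relations of members to class II 0.00272 and 0.0203). Within groups r was 0.854 (exact permutation adjusted p 0.0421), and without AI1061 it was 0.910 (exact permutation adjusted p 0.015). Its rho without AI1061 was 0.817 (exact permutation adjusted p 0.108). Without AI1061 and AI792 r was 0.729 (exact permutation p 0.0347, adjusted p 0.122). AIF1 had r = 0.815 and rho = 0.758 with the class II mean (permutation p 0.00243 and 0.015, adjusted p 0.00972 and 0.0544). Its r was 0.766 within groups (exact permutation adjusted p 0.0724), 0.798 without AI1061 (exact permutation adjusted p 0.0414) and 0.496 without AI1061 and AI792 (exact permutation p 0.214). Without those sows neither gene passed at an adjusted p of 0.05, so that the test rests on them for both.

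The means of CD163 and CD86 did not pass against class II. The mean of CD163 had r = 0.344 (rho = 0.406, permutation p 0.341 and 0.247, adjusted p 0.594 and 0.411), and its brightest feature had r = 0.475. The mean of CD86 had r = -0.004 (rho = 0.067, permutation p 0.991 and 0.865). That value joined opposite features, since r was 0.633 for the bright feature 33227 and -0.642 for the dim feature 39554 (permutation p 0.0445 and 0.068, adjusted over 11 features 0.0979 and 0.125). For feature 39554 the negative relation passed as rho (-0.760, permutation adjusted p 0.0378), within groups (r = -0.758, exact permutation adjusted p 0.0369) and without AI1061 (r = -0.796, exact permutation adjusted p 0.0339), and without AI1061 and AI792 it had r = -0.437 (exact permutation p 0.273). Feature 39554 had a narrow range over sows, 0.51 on the log2 scale, which exceeded that of only 23.7% of all features. Whether the correlations of the 4 genes with class II differed from each other was not tested.

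Chain by chain, AIF1 passed at an adjusted permutation p of 0.05 with 8 of 9 class II genes and TYROBP with 8 of 9, with r up to 0.890 (SLA-DQA1) for AIF1 and up to 0.918 (SLA-DRA) for TYROBP. The exception was SLA-DOB in both cases, at r = 0.298 and 0.146, whose mean intensity of 6.72 was below the median of all values. TYROBP had r = 0.905 with CD74, 0.868 with SLA-DMA, 0.864 with SLA-DQB1, 0.844 with SLA-DQA1, 0.835 with SLA-DMB, 0.794 with SLA-DRB1 and 0.777 with SLA-DOA. AIF1 had r = 0.855 with CD74, 0.849 with SLA-DRA, 0.769 with SLA-DMB, 0.762 with SLA-DOA, 0.752 with SLA-DMA, 0.708 with SLA-DRB1 and 0.704 with SLA-DQB1. By rho AIF1 passed with 3 of 9 and TYROBP with 5 of 9. An r of 0.6 or more, reached by 8 of 9 class II genes with either, was reached by 3.6% of all other genes with AIF1 and by 7.84% with TYROBP. The chains share sows and tissue pieces and are not independent of each other. Without AI1061 TYROBP passed with 7 of 9 and AIF1 with 4 of 9, and within groups TYROBP passed with 7 of 9 and AIF1 with 1 of 9. By rho without AI1061 TYROBP passed only with SLA-DRA and CD74 (exact permutation adjusted p 0.015 and 0.0141), and AIF1 with none. Without the 2 sows farthest from the median of each chain, neither gene passed with any chain (smallest exact permutation adjusted p 0.11). For CD163 and CD86 0 of 9 passed, with r from -0.250 to 0.503 and from -0.277 to 0.141. None of these relations had an unadjusted permutation p under 0.05.

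**Figure D4:**
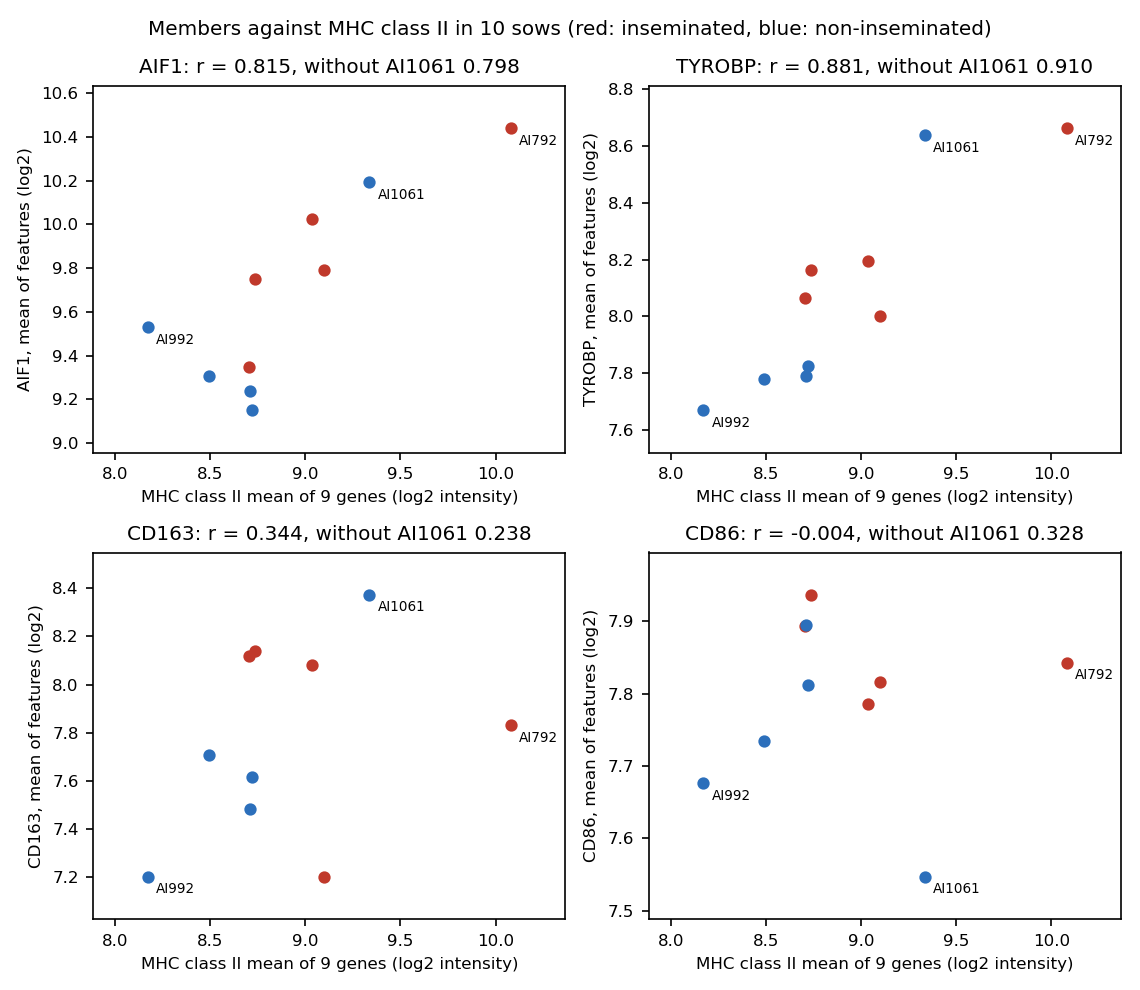
Log2 intensity of each member gene as the mean of its features (vertical axis) against the mean of 9 MHC class II genes (horizontal axis) in 10 sows, inseminated in red and non-inseminated in blue, with r over all sows and without AI1061. TYROBP rises with class II (r 0.881 and 0.910), AIF1 likewise (0.815 and 0.798), and CD86 shows no such order, with AI1061 lowest.

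Beyond class II, the genes most like TYROBP over the 10 sows, out of 4556 compared, were C1QA (r = 0.975), IL16 (0.950), SLA-DRA (0.918), CRLF3 (0.916) and DOK1 (0.908). C1QA, a chain of complement C1q made by macrophages, read 9.35, 9.23, 8.94, 8.94 and 9.997 in the inseminated and 8.64, 9.88, 8.74, 8.94 and 8.41 in the non-inseminated sows, so that AI792 and AI1061 were again highest. Its r with TYROBP was 0.965 without AI1061, still the highest of all genes, while the other 4 then ranked from 3 to 23. The genes most like AIF1 were the immunoproteasome subunit PSMB8 (r = 0.907), the beta-glucan receptor CLEC7A (0.894), SLA-DQA1 (0.890), C1QA (0.872) and the chemokine CCL5 (0.869), which ranked from 3 to 14 without AI1061. The 5 genes most like CD163 were RND3, DDX46, MAPK9, LOC100154405 and XPO7 (r from 0.864 to 0.876), and those most like CD86 were TBC1D12, LOC100514469, DNASE1, GOLGA1 and DIAPH2 (r from 0.883 to 0.940). Without AI1061 the CD163 genes ranked from 4 to 28 (r from 0.819 to 0.888) and the CD86 genes from 15 to 87 (r from 0.753 to 0.859). None of these 10 belonged to the class II or macrophage lists. Each r here is the highest of many and is given as a description.

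Partners of the members showed no common movement. Of 12 listed, 8 were measured, 4 with a higher and 4 with a lower mean in inseminated sows, where 46.8% of all genes were higher. Of these partners 0 of 8 passed (limma adjusted p 0.999 each). TREM1 and CLEC5A, receptors that signal through DAP12, were each read by 1 feature. Their mean log2 intensities, 6.74 and 6.71, were below the median of all values. They differed by -0.18 and 0.04, and the kinase SYK differed by 0.03. For the CD163 ligand haptoglobin, HP, the difference was 0.27 with a standard error of 0.55, and for the haem-degrading enzyme HMOX1 it was -0.03. The CD86 receptor CTLA4 differed by -0.21 and by 0.04 without AI1061, where it was highest, and the other B7 ligand CD80 by -0.15. LCP1, a leukocyte actin-bundling protein, differed by 0.06 and had r = 0.728 with AIF1.

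Other macrophage and monocyte markers were mixed. Of 36 listed, 18 were measured, 9 with a higher and 9 with a lower mean in inseminated sows, where 46.8% of all genes were higher. The 18 had a median difference of 0.0034, and 0 of 18 passed. The smallest unadjusted p belonged to VSIG4, a complement receptor of tissue macrophages (0.21), the myeloid transcription factor SPI1 (-0.58, or -0.21 without AI1061), C1QA (0.37) and GPNMB (-0.37). Without AI1061 C1QA differed by 0.61 and VSIG4 by 0.28 (limma unadjusted p 0.0174 and 0.0325), the 2 of 18 then under 0.05. Of all genes, 2.32% were then under 0.05 and higher in inseminated sows. In either direction 353 of 4560 genes were under 0.05. An r of 0.6 or more with TYROBP was reached by 4 of 18, 22.2% against 7.84% of all genes. They were C1QA, VSIG4 (r = 0.861), FCER1G (0.867) and FCGR2B (0.80), where FCER1G is an adaptor of the same kind as DAP12 and FCGR2B an inhibitory receptor for IgG. The lowest r belonged to the folate receptor FOLR2, at -0.737. With CD163 an r of 0.6 or more was reached by 6 of 18, 33.3% against 5.93% of all genes, and by 5 of 18 without AI1061. They were these 4 (r from 0.661 to 0.770), the mannose receptor MRC1 (0.731) and the lymphocyte antigen LY86 (0.635). The mean of the 18 had r = 0.654 and rho = 0.612 with CD163 (permutation p 0.0395 and 0.067, adjusted over the 36 relations described next 0.29 and 0.332), and r = 0.499 without AI1061. FCER1G, FCGR2B, FOLR2, MRC1 and LY86 were singled out after their values had been seen.

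Markers of other cells were set against the members. Among 36 relations of the 4 genes to 9 cell type lists, 0 passed at an adjusted permutation p of 0.05, and 4 had an unadjusted p under 0.05, namely T and NK cells with TYROBP and AIF1, stroma with CD163 and the macrophage list with CD163. Without AI1061 2 of 36 passed by Pearson r, T and NK cells with TYROBP and mast cells with AIF1 (exact permutation adjusted p 0.0427 each). Neither passed as rho without AI1061 (0.767 and 0.733, exact permutation adjusted p 0.519 each). The mean of 13 T and NK cell markers of 18 listed ranged from 7.25 to 7.77 in inseminated and from 7.09 to 7.33 in non-inseminated sows. It had r = 0.791 and rho = 0.818 with TYROBP (permutation p 0.00202 and 0.00611, adjusted p 0.0661 and 0.196) and r = 0.773 and rho = 0.673 with AIF1 (permutation p 0.00367 and 0.0386, adjusted p 0.0661 and 0.332). Within groups these r were 0.739 and 0.702, without AI1061 0.924 and 0.825, and without AI792 and AI992 0.626 and 0.756. In this list 11 of 13 had a higher mean in inseminated sows, against 46.8% of all genes, and 0 of 13 passed. The smallest unadjusted p in limma was that of the granzyme GZMK (0.52, limma p 0.0153, adjusted p 0.999). The stroma list, which ranged from 9.46 to 10.3 in inseminated and from 8.85 to 10.6 in non-inseminated sows, had r = 0.788 and rho = 0.782 with CD163 (permutation p 0.0062 and 0.0109, adjusted p 0.0744 and 0.196). It had r = 0.697 without AI1061 and 0.546 without AI1061 and AI992. The mean of 3 mast cell markers of 7 listed ranged from 7.84 to 8.20 in inseminated and from 7.79 to 7.93 in non-inseminated sows and was lowest in AI1061. It had r = 0.524 with AIF1 and 0.358 with TYROBP (permutation adjusted p 0.302 and 0.488), and 0.884 and 0.845 without AI1061 (exact permutation adjusted p 0.0427 and 0.092). The epithelium list had r = -0.555 with TYROBP (rho = -0.60, permutation p 0.0936 and 0.0737, adjusted p 0.29 and 0.332) and -0.169 without AI1061. The part of these cells in the differences between sows was not tested.

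**Figure D5:**
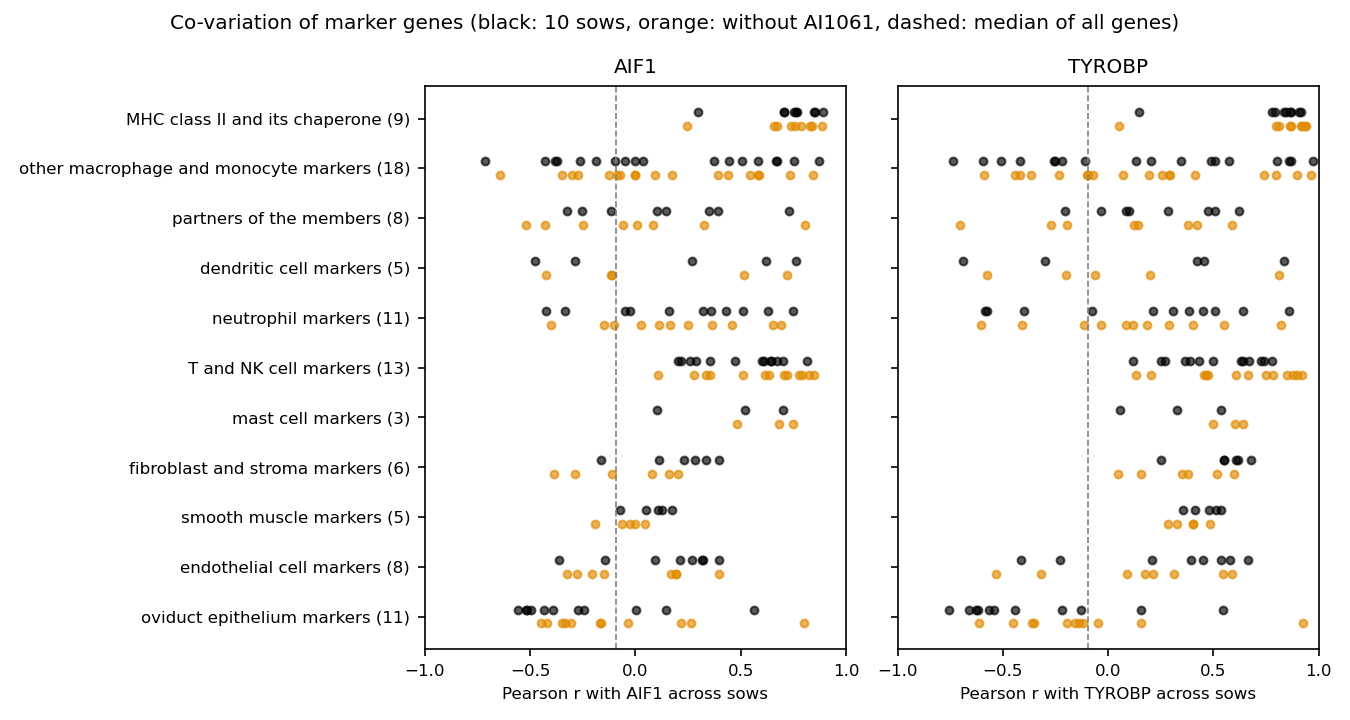
Pearson r of each measured gene of 11 lists (rows, with the number of genes) with AIF1 (left) and TYROBP (right), over 10 sows in black and without AI1061 in orange, with the median of all genes as a dashed line at -0.09. Class II genes lie far to the right except SLA-DOB, other macrophage markers spread over both sides, and epithelium markers lie mostly to the left.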

How the data were processed

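The authors scanned single-colour arrays, removed background by normexp (offset 10) and quantile-normalized the spots. What they deposited is on a log2 scale and was used unchanged. Symbols of 10290 of 45220 features came from the platform annotation, updated for 446 through RefSeq accessions, and gave 4560 genes, each the mean of its features. Feature numbers are row identifiers of the deposited table. Control spots are not marked there, so all features were fitted. Sequences, coordinates and the surgery day of each sow were not used here, and batches were therefore not examined.

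Group differences came from limma 3.58.1 (R 4.3.3), and p-values were adjusted by Benjamini-Hochberg over the whole table of features or genes, with a threshold of 0.05. Single genes were also tested by exact permutation of 252 splits of 5 sows against 5, where the smallest possible p is 0.00794. Correlations over sows were tested with 100000 permutations, exactly for fewer than 10 sows and within groups (14400 arrangements), in Python 3.11.15 with scipy 1.17.1, and adjusted within each family. Both methods were tested on simulated data. For limma the simulated features were independent of each other, and their shift was larger than the differences of the members. Whether differences as small as those would be found was not tested. The number of arrays limits the precision.

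Named genes were the members, all measured class II genes and partners, up to 4 genes with the smallest unadjusted p per other list, and the 5 symbols most correlated with each member. The members and lists were chosen with earlier results of these data known. Alternatives were a repeated quantile normalization, arrays centred on their median or 75th percentile, leaving out features under the 40th percentile of mean level, a trended and robust variance, array weights, an equal-variance test, the feature with the highest mean, Spearman's rho, deviations from group means, and leaving out sows.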

Additional observations from a re-analysis of the deposited data

Results flagged for a closer look

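Among 50 groups of 5 sows, for the members, their features and class II, 11 held a sow far from the other 4, where chance gives about 1 in 20 groups. The features and genes share sows, so these are not separate events. In 7 the sow was the non-inseminated AI1061 within the members' features or genes at a high or low extreme. It read 10.87 for AIF1 feature 25271 against 9.74 to 10.06 in the other non-inseminated sows. For TYROBP it read 8.97 (feature 24188), 8.30 (feature 2621) and 8.64 (mean of both), against at most 8.11, 7.58 and 7.82. For CD163 feature 12936 it read 10.04 against at most 8.41. For the dim CD86 features it was low, 6.95 for feature 39554 against at least 7.36 and 6.56 for feature 30065 against at least 7.07. In the inseminated group the sow was AI792, with 8.38 for TYROBP feature 2621 against at most 7.90, 10.08 for the class II mean against at most 9.10, 10.56 for SLA-DMA against at most 9.06 and 9.71 for SLA-DMB against at most 8.70.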

How the results depend on the processing

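The differences of AIF1, TYROBP, CD163 and CD86 by insemination kept their sign and stayed short of the threshold under every alternative run. Leaving out single sows, they ranged from 0.25 to 0.57 for AIF1, 0.16 to 0.45 for TYROBP, 0.08 to 0.37 for CD163 and 0.08 to 0.16 for CD86. Array weights gave 0.402 for CD163 and 0.0644 for CD86, and the brightest feature gave 0.272 for CD86, moves of over 1.5 times. Signs turned with array weights for CD86 features 39554 (-0.0432) and 30065 (-0.0278), CLEC5A (-0.0552), HP (-0.114), HMOX1 (0.0458) and CTLA4 (0.0122). Leaving out single sows, they turned for CD163 feature 20440 (-0.0747 to 0.149), CD86 features 39554 (-0.0683 to 0.0569) and 30065 (-0.055 to 0.124), SLA-DOA (-0.0392 to 0.457), CLEC5A (-0.052 to 0.0992), SYK (-0.0719 to 0.117), HP (-0.115 to 0.562), HMOX1 (-0.169 to 0.136), CTLA4 (-0.291 to 0.0382) and LCP1 (-0.0031 to 0.102).

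By limma 0 features and 0 genes passed in all sows. Leaving out single sows gave 0 to 1 of each, the 1 without AI696, and the equal-variance test gave 1 gene, none of them a member. The 1525 of 45220 features at an unadjusted limma p under 0.05 became 803 of 27132 once dim features were left out. Of 45220 features they became 2577 with array weights and 3165 without AI1061. The 118 of 4560 genes became 313 and 353 with the last 2.

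For AIF1 and TYROBP r fell short of the threshold as rho (0.782), within groups (0.855) and without the 2 farthest sows (0.686), and leaving out single sows it ran from 0.816 to 0.922. For TYROBP and CD163 r passed with the brightest features (0.80) and ran from 0.538 to 0.799 over single sows, passing without AI792. With the brightest features CD86 turned to 0.531 with AIF1, 0.623 with TYROBP and 0.478 with CD163. As rho, and without the 2 farthest sows, it turned to 0.139 and 0.20 with TYROBP and to 0.091 and 0.296 with CD163. Over single sows CD86 ran from -0.469 to 0.051 with AIF1, -0.398 to 0.419 with TYROBP and -0.321 to 0.533 with CD163. Against class II AIF1 fell short as rho (0.758), within groups (0.766), without the 2 farthest sows (0.496) and without AI792, with 0.683 to 0.877 over single sows. TYROBP fell short without the 2 farthest sows (0.729) and without AI792, with 0.836 to 0.910. CD86 turned to 0.067 as rho, 0.481 without the 2 farthest sows and 0.677 with the brightest feature of CD86 and of each class II gene, with -0.221 to 0.328 over single sows. The causes were not tested.

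No paired analysis was possible because the labels give no replicate numbers that tie inseminated to non-inseminated sows. With 5 sows a group and 10 arrays, wide intervals leave changes of moderate size undecided, and dim features lie near the middle of all intensities.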
